A study of Homo sapiens with 6 samples.

Results

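Osteopontin (SPP1), its receptors CD44, ITGAV, ITGB1, ITGB3 and ITGB5, and the matrix genes FN1, LUM, COL1A1 and COL1A2 were followed in 5 RNA sequencing libraries of a human cell line labelled HCC. The members were chosen by name, with the levels and the knockdown differences of SPP1, LUM, COL1A1 and COL1A2 in these libraries already known. These 10 genes were found by symbol among the 58676 gene IDs of the deposited table. The cells were grown in DMEM with serum. The control libraries (replicates 1, 2 and 3) and the knockdown libraries carry only those group labels. The titles of the latter also hold the word sponge, a name for an RNA built to soak up a microRNA, and miR-19a is named for the series. The line is not named, and neither the sponge construct nor the number of clones or cultures is given in the sources used here, so a p-value measures the spread between libraries, which may be technical. The column of knockdown replicate 2 was left out because its values did not follow the gene IDs: its Spearman rank correlation across genes with the other libraries was 0.0173 to 0.0191, against 0.822 to 0.887 among those 5, where genes are not independent replicates. That leaves 3 control and 2 knockdown libraries.

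Osteopontin is a secreted phosphoprotein that binds cells through an RGD motif read by integrins that pair the αv subunit with β1, β3 or β5, and also through CD44, a hyaluronan receptor. In liver it is known from bile duct cells, activated stellate cells and tumour cells. Fibronectin, the product of FN1, is a larger RGD ligand of the same integrin family, type I collagen is a fibre-forming heterotrimer of COL1A1 and COL1A2 chains, and lumican (LUM) is a small proteoglycan that binds collagen fibrils.

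Depth differed between the libraries. The controls held 9181567, 1948940 and 19605312 assigned reads, in the order of replicates 1, 2 and 3, and the knockdown libraries 9296308 (replicate 1) and 15198231 (replicate 3). Control replicate 2 was the shallowest, and mitochondrial transcripts took 10.4% of its reads against 4.94% to 8.30% in the other 4. The HCC label was set beside hepatocyte markers, of which 16 of 18 passed the filter on low values. Albumin (ALB) was at 652 to 951 RPKM (reads scaled by exon length and by the assigned reads of the library) and AFP at 217 to 312 RPKM over the 5 libraries. Markers of other liver cells differed in level, and those of bile duct cells are given with SPP1. The summed level of 12 stellate cell and fibroblast genes (13 gene IDs) was 2.05 to 3.48 RPKM in the controls against 2.34 to 2.499 RPKM in the knockdown pair, with THY1 and POSTN at 0 in all 5 libraries, and that of 10 endothelial genes was 0.543 to 0.760 and 0.448 to 0.486 RPKM, with KDR, TEK, CLEC4G and CLEC4M at 0. Of 13 macrophage and leukocyte genes, 6 were at 0 in all 5 libraries (CD163, MARCO, C1QA, C1QB, VSIG4 and MS4A1), while the most abundant, CD14, was at 28.6 to 38.4 RPKM in the controls against 30.6 to 36.8 RPKM in the knockdown pair. That list summed to 44.7 to 51.5 RPKM in the controls against 46.5 to 52.5 RPKM in the knockdown pair, and 3 of its genes passed the filter.

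A microRNA represses transcripts whose 3′ UTR pairs with its seed, bases 2 to 8, so the members were searched for the match to the miR-19a seed. The mature miR-19a-3p (RefSeq, GRCh38.p14, chr13:91350939-91350961, plus strand) is printed with its seed in capitals, followed by every match of the members, in DNA letters on the transcript strand, with the matched bases in capitals. The full match is TTTGCAC and the shorter one TTGCAC, which the full match contains. The search covered the transcript strand of each gene's longest annotated 3′ UTR (GENCODE release 29, GRCh38).
miR-19a-3p: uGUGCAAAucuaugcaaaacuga
COL1A2, chr7:94430688-94430717, plus strand: aaccataaacaTTTGCACcacttgtggctt
COL1A1, chr17:50183864-50183893, minus strand: cttgcaatttccTTGCACcttttccaaatc
LUM, chr12:91103783-91103812, minus strand: gatgttactctcTTGCACcaaattatcttg
ITGB5 (upstream match), chr3:124763546-124763575, minus strand: gactgaaacgccTTGCACggctgctcggct
ITGB5 (downstream match), chr3:124763106-124763135, minus strand: gatggctatgccTTGCACacaggtgttggt

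COL1A2 was the single member with TTTGCAC, at base 306 of an 839-base 3′ UTR. Among the 500 coding genes of nearest 3′ UTR length, 7.60% held it, and 13.6% of all 19145 coding genes did. TTGCAC without the first base occurred in COL1A1, LUM and, at 2 places, in ITGB5, where the downstream match is followed by an A. Among the 500 genes of nearest length, 43.6% (for COL1A1), 30.4% (for LUM) and 32.2% (for ITGB5) held TTGCAC, as did 28.5% of all coding genes. The 6 other members, SPP1, FN1, ITGAV, ITGB1, ITGB3 and CD44, held neither string in their longest 3′ UTR, where among the 500 genes of nearest length TTTGCAC occurred in 2.20% (for SPP1) to 26.6% (for ITGAV). TTGCAC occurred there in 6.6% (for SPP1) to 59.4% (for ITGAV). A match is a description of these letters and not a site of action.

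The level of each gene per length gave the order of the members. FN1 was highest, at 112 to 299 RPKM over the 5 libraries, rank 183 of the 15408 genes tested. ITGB1 at 48.8 to 74.6 RPKM and LUM at 53.5 to 68.3 RPKM came next and overlapped each other. ITGAV (21.1 to 43.6 RPKM), ITGB5 (26.5 to 31.6 RPKM) and SPP1 (14.2 to 33.8 RPKM) formed an overlapping group below them, and the range of SPP1 reached down to that of COL1A2 (7.54 to 14.7 RPKM). COL1A1 was lower, at 0.732 to 2.33 RPKM. ITGB3 and CD44 were at the edge of detection as counted. In the neighbouring pairs FN1 and ITGB1, LUM and ITGAV, COL1A2 and COL1A1, and COL1A1 and ITGB3, the ranges did not overlap.

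**Figure D1:**
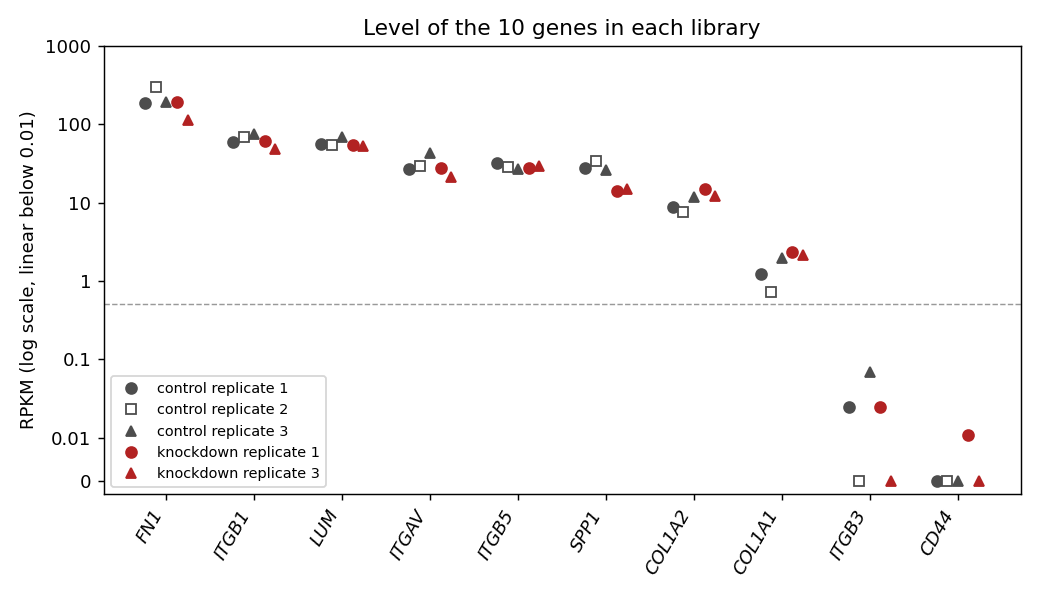
RPKM of each member (vertical axis, log scale, linear below 0.01) in the 3 control libraries (grey) and knockdown replicates 1 and 3 (red), ordered by mean level, with a dashed line at the filter of 0.5 RPKM. SPP1 is lower in both knockdown libraries than in every control, COL1A1 and COL1A2 are higher, and ITGB3 and CD44 lie below 0.1 RPKM.

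The knockdown libraries were compared with the controls by limma on log2(RPKM + 0.5) for every gene that reached 0.5 RPKM in 3 or more of the 5 libraries. The controls alone could meet this filter and the knockdown pair alone could not, so near the filter it favoured genes higher in the controls. No gene passed: of 15408 genes, limma called 0.00% in either direction (adjusted p under 0.05), and the lowest adjusted p was 0.710. Without adjustment, 585 genes (3.80%) lay higher and 392 (2.54%) lower at p under 0.05; limma voom, run on reads recovered from the RPKM values, called 0, with 747 and 885 genes at that unadjusted level. The share of genes with both knockdown values over every control was 14.3%, and that with both under every control 13.6%, or 27.8% in either direction. Of the 10 members, 8 passed the filter on low values, 2 of them (COL1A1 and COL1A2) lay above all controls and SPP1 below. SPP1, LUM, COL1A1 and COL1A2 were chosen with their values in this comparison known, so these values are given as a description with no test.

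SPP1 (ENSG00000118785, chr4:87975650-87983426, plus strand) was the member of largest difference. It was at 27.5, 33.8 and 26.0 RPKM in the controls, here and later in the order of replicates 1, 2 and 3, and measured 14.2 and 14.8 RPKM in replicates 1 and 3 of the knockdown. The lowest control was above the higher knockdown library, and the 2 knockdown libraries were nearly level with each other. The means were 29.1 ± 4.16 RPKM (SD, n = 3) and 14.5 ± 0.423 RPKM (SD, n = 2), and the difference on the log2(RPKM + 0.5) scale was -0.97 (SE 0.17). These values rest on 586, 153, 1182, 307 and 523 reads in the same order of libraries, so that even in the shallow control replicate 2 the exact 95% Poisson interval, which covers counting error only, was 28.7 to 39.6 RPKM, above both knockdown libraries (12.7 to 15.9 and 13.6 to 16.2 RPKM). Leaving out control replicate 2 gave a difference of -0.86, and leaving out control replicate 3 one of -1.05; the other alternatives lay within these values. In a bulk library, fewer cells that make a transcript and less of it per cell cannot be told apart.

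No other gene of the SIBLING family, the group of phosphoproteins next to SPP1 on chromosome 4, passed the filter. Bone sialoprotein (IBSP) was at 0.0990 to 0.332 RPKM in the controls against 0 and 0.0851 RPKM in the knockdown pair. These values rest on 2, 1 and 3 reads in the controls and 0 and 2 in the knockdown pair, too few to compare the groups. DMP1, DSPP and MEPE did not exceed 0.144 RPKM in any of the 5 libraries.

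SPP1 is also a marker of bile duct cells. Of the 7 genes in that list, 5 were tested, with 3 differences above 0 and 2 below: keratin 19 (KRT19) was at 154 to 273 RPKM in the controls against 281 to 378 RPKM in the knockdown pair, CD24, a surface glycoprotein, at 521 to 628 and 641 to 665 RPKM, and SOX9, a transcription factor of bile duct cells, at 20.0 to 25.4 and 16.2 to 19.0 RPKM. The summed level of the list was 775 to 1012 RPKM in the controls against 1015 to 1147 RPKM in the knockdown pair, and its part in the SPP1 values was not tested.

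Of the integrin subunits that bind osteopontin, αv, β1 and β5 were present and β3 was close to 0 as counted, with a limit given below. ITGAV (ENSG00000138448, chr2:186590065-186680901), the αv subunit, was at 26.8, 29.4 and 43.6 RPKM in the controls against 27.9 and 21.1 RPKM in the knockdown pair, and the groups overlapped. Its difference on the log2 scale was -0.41 (SE 0.26, 95% interval -1.07 to 0.25), which did not pass (limma adjusted p = 0.727). It was -0.20 without control replicate 3, the highest library, -0.22 without knockdown replicate 3, and -0.24 with each library's trend against gene length and GC content removed.

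ITGB1 (ENSG00000150093, chr10:32900319-33005792), the β1 subunit shared by receptors for collagen, laminin and fibronectin, was at 59.8, 68.3 and 74.6 RPKM in the controls against 61.7 and 48.8 RPKM in the knockdown pair. Here too the groups overlapped, with knockdown replicate 3 lowest, and the log2 difference of -0.29 (SE 0.18, 95% interval -0.75 to 0.17) did not pass (limma adjusted p = 0.726). It was -0.12 without knockdown replicate 3, -0.46 without knockdown replicate 1 and -0.17 with the length and GC trend removed.

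ITGB5 (ENSG00000082781, chr3:124761948-124901418), the β5 subunit that pairs with αv, was the steadiest member, at 31.6, 28.3 and 26.5 RPKM in the controls against 27.8 and 28.99 RPKM in the knockdown pair. Both knockdown libraries lay within the range of the controls. The log2 difference was -0.02 (SE 0.15, 95% interval -0.39 to 0.36; limma adjusted p = 0.981), and its sign turned under 4 alternatives. The level of ITGB5 was 0.607 to 1.37 times that of ITGAV in the same library, and that of ITGB1 1.71 to 2.33 times.

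ITGB3 and CD44 did not pass the filter. ITGB3 (ENSG00000259207, chr17:47253846-47311816), the β3 subunit of the classical vitronectin receptor, had 8 reads over the 5 libraries, namely 1, 0 and 6 in the controls and 1 and 0 in the knockdown pair. They correspond to 0.0330 RPKM (exact 95% Poisson interval 0.0142 to 0.0650 RPKM). A coding gene on the same strand, AC068234.1, overlaps it almost whole and was at 0, so reads shared between the 2 annotations cannot be told apart. How such reads were counted is not given. If they were dropped, the level of ITGB3 is understated, and the interval does not cover this.

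CD44 (ENSG00000026508, chr11:35138870-35232402) had 1 read among 55230358 assigned reads, in knockdown replicate 1. All 3 controls were at 0, which at 3 reads over the group allows up to 0.00976 RPKM. With so few reads no difference between the groups was detectable for either gene. Its cytoskeletal partner moesin (MSN) had 3 reads in all, while ezrin (EZR), a related linker of membrane proteins to actin, was at 65.9 to 111 RPKM in the controls against 87.9 to 97.9 RPKM in the knockdown pair.

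**Figure D2:**
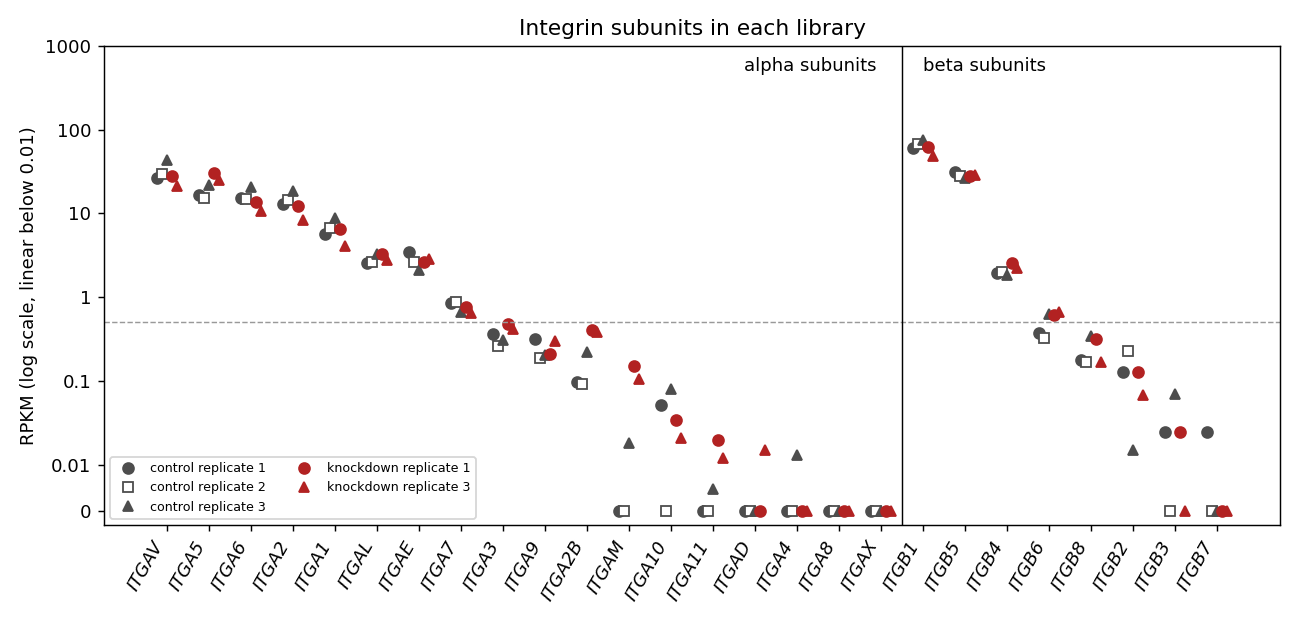
RPKM of the 18 integrin alpha and 8 beta subunits (vertical axis, log scale, linear below 0.01) in the control (grey) and knockdown (red) libraries, ordered by mean level within each class, with a dashed line at 0.5 RPKM. ITGAV leads the alpha subunits in every control and ITGA5 in both knockdown libraries, and ITGB1 and ITGB5 stand above the other 6 beta subunits.

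Among the alpha subunits, 8 of 18 passed the filter and 0 were called; 3 differences were above 0 and 5 below 0; their median was -0.25. It was -0.06 without knockdown replicate 3, -0.40 without knockdown replicate 1, -0.39 when genes under 2 RPKM were left out, and 0.02 with no filter on low values. ITGA5, which forms the fibronectin receptor with β1, was at 16.4, 15.4 and 21.7 RPKM in the controls against 30.04 and 25.1 RPKM in the knockdown pair, a log2 difference of 0.62 (SE 0.20; limma adjusted p = 0.710). Both knockdown libraries stood above every control. The collagen-binding subunit ITGA2 was at 12.9 to 18.6 RPKM in the controls against 8.31 to 12.3 RPKM in the knockdown pair, and the laminin-binding ITGA6 at 14.9 to 20.6 and 10.8 to 13.8 RPKM. Both were named after their values were seen, as the other 2 subunits tested whose groups did not overlap. ITGA4, ITGA8 and ITGA9, further known partners in osteopontin binding, stayed under 0.5 RPKM, with ITGA8 at 0 in all 5 libraries.

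Of 8 beta subunits, 4 were tested, with 2 differences above 0 and 2 below, a median of 0.12 and 0 called; the median was -0.07 without control replicate 3, -0.05 without knockdown replicate 3, -0.15 when genes under 2 RPKM were left out and -0.02 with no filter. Besides ITGB1 and ITGB5 these were ITGB4 at 1.83 to 1.97 RPKM in the controls against 2.23 to 2.53 RPKM in the knockdown pair, and ITGB6 at 0.328 to 0.620 and 0.620 to 0.660 RPKM. ITGB6 pairs with αv in epithelia and ITGB4 with ITGA6 in hemidesmosomes.

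The adaptors that link integrins to actin were divided, with 8 of 20 tested genes above 0 and 12 below 0, a middle value (median) of -0.10 and 0 called. Leaving out knockdown replicate 1 gave a median of -0.25, and leaving out knockdown replicate 3 gave 0.02. The most abundant, the actin crosslinker ACTN4, was at 229 to 264 RPKM in the controls against 204 to 257 RPKM in the knockdown pair, and zyxin (ZYX) at 83.1 to 85.1 and 83.6 to 100.2 RPKM. In both genes the groups overlapped.

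Around CD44, 13 of 18 genes of hyaluronan synthesis, breakdown and binding and of CD44 anchoring and splicing were tested, with 6 differences above 0, 7 below, a median of -0.13 and 0 called. The median was 0.01 both without knockdown replicate 1 and with no filter, -0.04 without control replicate 1 and -0.23 without control replicate 2. Versican (VCAN), a hyaluronan-binding proteoglycan, was at 5.63, 8.34 and 7.60 RPKM in the controls against 4.03 and 2.31 RPKM in the knockdown pair, a log2 difference of -1.09 (SE 0.29; limma adjusted p = 0.710). Its groups did not overlap. MMP14, a membrane protease that cleaves CD44 and collagen, was at 82.4 to 108 RPKM in the controls against 100.2 to 112 RPKM in the knockdown pair. ESRP1 and ESRP2 direct epithelial splicing of CD44. ESRP1 was at 10.9 to 14.1 RPKM in the controls against 9.14 to 10.7 RPKM in the knockdown pair, and ESRP2 at 16.2 to 20.7 and 12.2 to 15.0 RPKM. Both were named after their values were seen. In this list 3 tested genes lay below all controls in both knockdown libraries, beside 13.6% of all genes tested, and 0 lay above.

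Fibronectin was the most abundant ligand among the members. FN1 (ENSG00000115414, chr2:215360440-215436172) was at 186, 299 and 190.2 RPKM in the controls against 194 and 112 RPKM in the knockdown pair, so that control replicate 2 stood above and knockdown replicate 3 below the other 3 libraries, which were close together. The groups overlapped. The log2 difference of -0.57 (SE 0.34, 95% interval -1.42 to 0.28) did not pass (limma adjusted p = 0.725). It was -0.18 without knockdown replicate 3, -0.97 without knockdown replicate 1, -0.35 without control replicate 2 and -0.37 with the length and GC trend removed. FN1 has the longest summed exons of the members, 17315 bases.

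Ligands of the same integrins lay on both sides of 0. Of 20 tested, 8 differences were positive and 12 negative, SPP1 and FN1 included, with a median of -0.18 and 0 called. The median was -0.09 without knockdown replicate 3, -0.11 without control replicate 3, -0.28 without control replicate 1 and -0.35 without knockdown replicate 1. With groups that did not overlap, 4 were higher and 6 lower, beside 27.8% of all genes tested in either direction.

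Vitronectin (VTN), an RGD protein made by hepatocytes that binds αvβ5, was at 91.5, 79.1 and 98.7 RPKM in the controls against 123 and 135 RPKM in the knockdown pair, a log2 difference of 0.53 (SE 0.17; limma adjusted p = 0.710). Both knockdown libraries stood above the highest control, the reverse of SPP1. TGFB1, whose latent form is held by αv integrins, was at 15.8, 12.8 and 15.4 RPKM and 20.3 and 23.7 RPKM, a difference of 0.57 (SE 0.17). Thrombospondin 1 (THBS1), an adhesive glycoprotein, lay on the other side, at 55.9, 84.1 and 62.4 RPKM and 48.9 and 31.6 RPKM, a difference of -0.75 (SE 0.27). The fibrinogen chain FGB, the most abundant gene of the list, was at 302 to 315 RPKM in the controls against 303 to 329 RPKM in the knockdown pair.

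**Figure D3:**
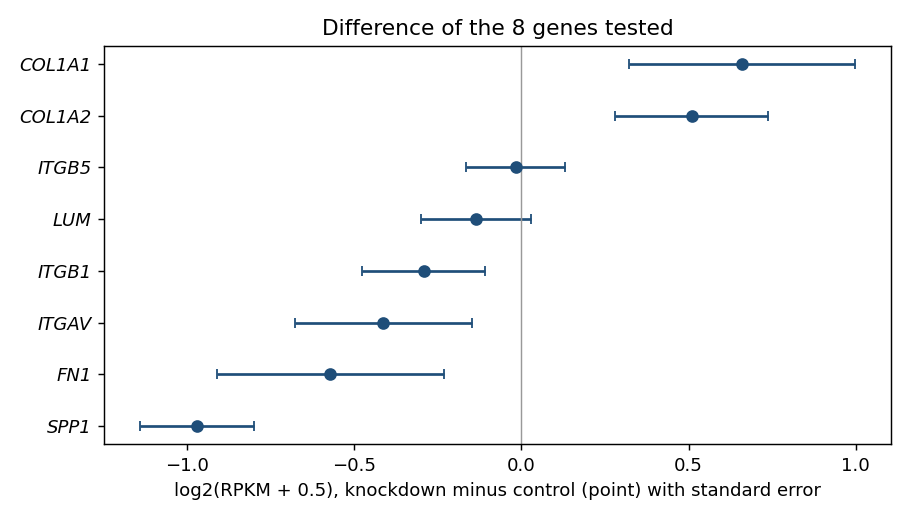
Difference on the log2(RPKM + 0.5) scale, knockdown minus control, of the 8 members that passed the filter; points are limma estimates over 3 control and 2 knockdown libraries and bars their standard errors. SPP1 at -0.97 and COL1A1 at 0.66 are the ends of the range, and ITGB5 lies at -0.02.

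The type I collagen chains lay higher in both knockdown libraries. COL1A2 (ENSG00000164692, chr7:94394561-94431232, plus strand), the member with the TTTGCAC match printed above, was at 8.79, 7.54 and 11.7 RPKM in the controls against 14.7 and 12.02 RPKM in the knockdown pair, from 900, 164, 2563, 1527 and 2038 reads. The gap between the groups was narrow, with control replicate 3 just under knockdown replicate 3. The log2 difference was 0.51 (SE 0.23), and 0.37 to 0.68 over the alternatives.

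COL1A1 (ENSG00000108821, chr17:50183289-50201632, minus strand) was at 1.21, 0.732 and 1.99 RPKM in the controls against 2.33 and 2.16 RPKM in the knockdown pair, from 109, 14, 383, 213 and 322 reads. Control replicate 2 was lowest, with an exact 95% Poisson interval of 0.400 to 1.23 RPKM, and the interval of control replicate 3, 1.80 to 2.20 RPKM, overlapped those of both knockdown libraries (2.03 to 2.67 and 1.93 to 2.41 RPKM). The difference on the log2 scale was 0.66 (SE 0.34), 0.41 without control replicate 2 and 0.92 without control replicate 3. In every library COL1A2 exceeded COL1A1, by 5.57 to 10.3 times per length. The low levels of the fibroblast genes THY1, POSTN, DCN and ACTA2, none above 0.110 RPKM, stand beside these collagen values. PDGFRA, the highest of that list and its single tested gene, was at 0.580 to 1.11 RPKM in the controls against 0.352 to 0.431 RPKM in the knockdown pair. It passed the filter of 0.5 RPKM on the controls alone, so its lower knockdown values are a description only. The part of these fibroblast genes in the collagen values was not tested.

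The fibrillar collagens, COL1A1 and COL1A2 included, were mixed. Of 11 genes 5 were tested, with 3 differences above 0, 2 below 0, a median of 0.12 and 0 called, which came to 0.02 when control replicate 2 was left out to 0.19 when control replicate 3 was, and to 0.005 with no filter. COL5A2, a chain of the type V collagen that starts fibrils, was the most abundant, at 111, 85.8 and 159.8 RPKM in the controls against 126 and 96.3 RPKM in the knockdown pair. Its groups overlapped. COL5A1, its usual partner chain, had 0 reads in the 5 libraries, which allows up to 0.00485 RPKM, and COL3A1 was at 0.111 to 0.157 RPKM.

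Genes that modify, fold, cut and crosslink collagen lay mostly above 0. Of 24 tested, 21 differences were positive and 3 negative, and their median was 0.20, against 7701 of 15408 and a median of -0.0002 over all genes tested, and 0 were called. With groups that did not overlap, 10 were higher and 1 (PLOD3) lower, where over all genes tested the shares were 14.3% and 13.6%. Leaving out control replicate 2 gave a median of 0.13, and it was 0.12 with the length and GC trend removed.

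LOXL2, a lysyl oxidase that crosslinks collagen, had the largest difference of that list, at 3.30, 3.60 and 4.52 RPKM in the controls against 9.73 and 7.91 RPKM in the knockdown pair, or 1.12 (SE 0.20; limma adjusted p = 0.710) on the log2 scale. P4HA2, a catalytic subunit of the prolyl hydroxylase that stabilises the triple helix, was at 13.3, 13.6 and 12.7 RPKM and 18.8 and 17.2 RPKM, a difference of 0.43 (SE 0.14). In both genes every knockdown library stood clear of the controls. P4HB, the other subunit of that enzyme, was at 127 to 171 RPKM in the controls against 164 to 165 RPKM in the knockdown pair, and PPIB, which folds procollagen, at 43.0 to 87.9 and 81.4 to 90.7 RPKM.

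Lumican was the matrix member of smallest difference. LUM (ENSG00000139329, chr12:91102629-91111831, minus strand) was at 56.5, 54.2 and 68.3 RPKM in the controls against 54.5 and 53.5 RPKM in the knockdown pair, and control replicate 3 alone stood apart. The log2 difference was -0.13 (SE 0.16), or -0.04 without control replicate 3. In this family of 14 small leucine-rich proteoglycans LUM was the most abundant: decorin (DCN) did not exceed 0.0102 RPKM, biglycan (BGN) was at 0.209 to 0.353 RPKM, and 4 (KERA, ASPN, OMD and OPTC) were at 0. Fibromodulin (FMOD), which also binds collagen fibrils, came second at 4.83 to 6.54 RPKM in the controls against 5.82 to 5.997 RPKM in the knockdown pair. Of the 5 tested, 2 differences were above 0 and 3 below, and 0 were called.

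Among proteins that cut or modify osteopontin and their inhibitors, 7 of 9 tested genes were above 0, beside 7701 of all 15408, with a median of 0.16 and 0 called. In 5 of them both knockdown libraries lay above all controls, as in 14.3% of all genes tested. With the length and GC trend removed that median was 0.04. TIMP1 and TIMP2, inhibitors of the matrix metalloproteinases that cleave osteopontin, were at 9.05, 6.33 and 8.21 against 12.3 and 14.9 RPKM, and at 5.88, 4.37 and 6.37 against 8.46 and 8.01 RPKM, differences of 0.76 (SE 0.21) and 0.55 (SE 0.20) on the log2 scale. Of the proteases themselves MMP2, MMP9 and MMP12 were at 0 in all 5 libraries and MMP3 did not exceed 0.0249 RPKM. Thrombin (F2), which cleaves osteopontin beside its RGD motif, was at 37.8 to 42.0 RPKM in the controls against 44.7 to 46.2 RPKM in the knockdown pair. FAM20C, the kinase that phosphorylates osteopontin, was at 2.11 to 2.66 and 2.87 to 3.04 RPKM, and this gene was named after its values were seen.

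Transcription factors known to act on SPP1 were split. Of 20 tested, 9 differences were positive and 11 negative, their median was -0.03 and 0 called, 2 had higher and 6 lower groups without overlap (14.3% and 13.6% of all genes tested), and the median moved to -0.25 when genes under 2 RPKM were left out, to -0.17 without knockdown replicate 1 to -0.16 with quantile normalization and to -0.11 without either control replicate 1 or control replicate 2. ETV5, an ETS factor, was at 3.38, 3.63 and 4.67 RPKM in the controls against 2.56 and 2.14 RPKM in the knockdown pair, a log2 difference of -0.62 (SE 0.21). NR1H4, the bile acid receptor FXR, was at 9.85, 8.63 and 11.4 RPKM and 6.52 and 7.11 RPKM, a difference of -0.51 (SE 0.18), and TEAD1, the partner of YAP, at 8.37, 9.83 and 12.2 RPKM and 7.63 and 4.74 RPKM, -0.69 (SE 0.27). FOSL2, an AP-1 subunit, lay the other way at 3.79, 4.88 and 4.29 RPKM and 7.82 and 6.08 RPKM, 0.62 (SE 0.20). RUNX2, the bone regulator of SPP1, did not exceed 0.125 RPKM. The most abundant, HIF1A at 64.3 to 111 and 54.5 to 71.2 RPKM and JUNB at 22.3 to 58.0 and 51.3 to 61.0 RPKM, overlapped between the groups.

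**Figure D4:**
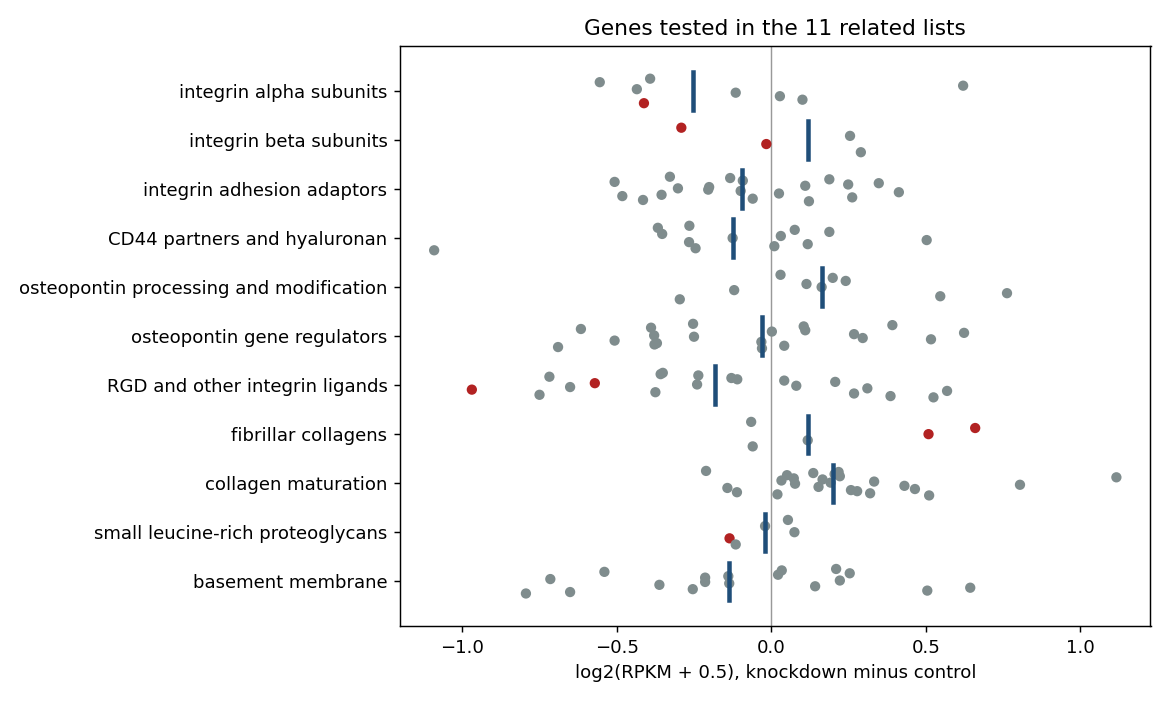
Difference on the log2(RPKM + 0.5) scale, knockdown minus control, of the tested genes in 11 lists around osteopontin (1 point a gene, members in red), with the median of each list as a blue bar. The collagen maturation list has 21 of 24 genes above 0 and a median of 0.20, and the alpha subunits have a median of -0.25.

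The profile of SPP1 over the 5 libraries was set against those of 7048 other genes with a mean of 5 RPKM or more, by the root-mean-square distance between log2(RPKM + 0.5) values centred on each gene's mean. The nearest were the noncoding RNA gene AC244154.1 at a distance of 0.125, LARS2, the mitochondrial leucyl-tRNA synthetase, at 0.178, the cation channel TRPC4 at 0.180, the transcription factor TOX3 at 0.184 and ATP2A2, the calcium pump of the endoplasmic reticulum, at 0.191. AC244154.1 was at 9.68, 14.0 and 8.97 RPKM in the controls against 6.12 and 5.54 RPKM in the knockdown pair, with control replicate 2 highest, as for SPP1. The nearest member was FN1 at 0.354 (rank 495), followed by ITGB1 at 0.392 (rank 856) and ITGAV at 0.441 (rank 1510), and COL1A2 at 0.795 was the farthest of the 6 members compared (rank 6134). These distances describe 5 libraries and were not tested. The 5 nearest genes were picked on these same libraries, so the order of libraries they share with SPP1 follows from that choice.

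**Figure D5:**
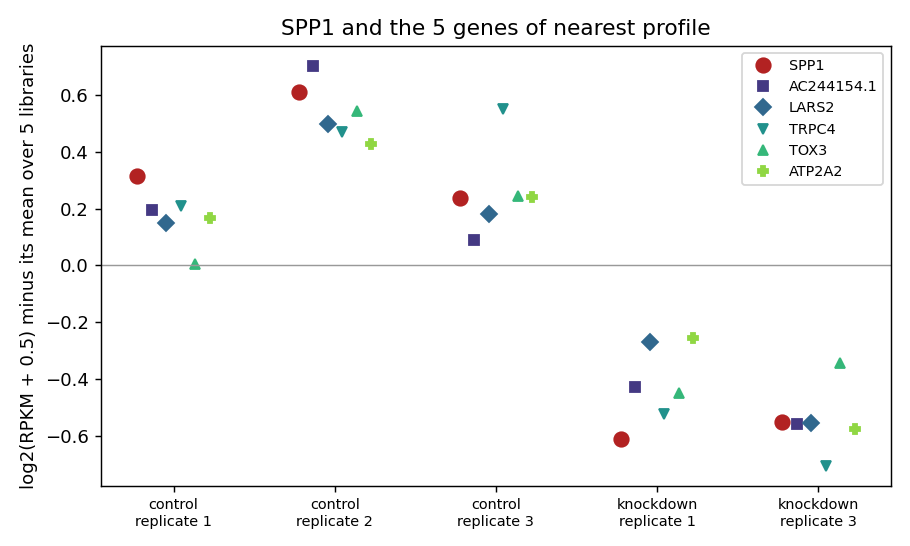
Log2(RPKM + 0.5) minus the gene's mean over the 5 libraries (vertical axis) of SPP1 and its 5 nearest genes, by library (horizontal axis). For these 6 genes both knockdown libraries lie below 0 and control replicate 2 lies above control replicate 1, a likeness for which the 5 were picked.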

How the data were processed

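RNA of 6 libraries was sequenced, and the authors deposited 1 table of RPKM values per gene and library. HISAT2 and GRCh38 were used, per the submitters' processing notes; how reads were counted, on which annotation and strand, is not given in the sources used here. Each of the 58676 gene IDs matched GENCODE release 29. In 5 libraries the deposited RPKM, multiplied by exon length, fell on whole steps (tolerance 0.002 of a read) for 100% of values above 0, read as assigned reads.

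The members and gene lists were chosen with earlier results of these data known. limma 3.58.1 (R 4.3.3; mean-variance trend, two-sided, Benjamini-Hochberg) was run on log2(RPKM + 0.5), which understates changes of low genes, for genes reaching 0.5 RPKM in 3 or more of 5 libraries. Named are the members, in each list up to 6 genes with unadjusted p under 0.05 and separated groups and the 2 most abundant, and the 5 genes nearest to SPP1, except 1 gene that is not reported here; others are said to be chosen after their values were seen, and list members at or near 0 and further subunits or markers were likewise picked from their values. Other settings tried were other pseudocounts, filters and scalings, no trend, voom, the replicate block, each library left out and all 6 columns; removal of length and GC trends was added after seeing the data. In simulated data for 3 control against 2 knockdown libraries (15999 genes tested), 66.7% of genes changed 4-fold and 6.38% changed 2-fold were called. The simulation gave all genes a single dispersion that was not estimated from these libraries, so its shares may not hold for genes of wider spread.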

Additional observations from a re-analysis of the deposited data

Results flagged for a closer look

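In the column of knockdown replicate 2 as deposited, which no comparison used, ITGB3 stands at 2.05 RPKM, above the highest control at 0.0696 RPKM, while FN1 stands at 45.1 RPKM and the other 8 members at 0. The values of that column did not follow the gene IDs, so the gene to which 2.05 RPKM belongs is not known.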

How the results depend on the processing

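Over 15 alternatives on the 5 libraries, the differences of SPP1, FN1, ITGAV, ITGB1, LUM and COL1A2 kept their sign, as did that of COL1A1 in the 14 that tested it. Not all of these could differ: changing the filter or dropping the mean-variance trend leaves a gene's difference as it was. The replicate block gives the same differences as leaving out control replicate 2. ITGB5 turned above 0 with unweighted TMM scaling (0.001), quantile normalization (0.042), without control replicate 1 (0.053) and without knockdown replicate 1 (0.014); with single libraries left out it ranged from -0.073 to 0.053; the cause was not tested. With the replicate block limma called 33 genes higher and 7 lower, at 1 residual degree of freedom, none of them a member or a gene of the lists; every other alternative, all 6 columns as deposited included, called 0. The replicate numbers were not taken as pairs. Deviations from the group means correlated by -0.17 between the replicates numbered 1 and by 0.02 between those numbered 3. The deviations of the knockdown pair are exact opposites, so a correlation with one library is that with the other with its sign turned. Whether the libraries were paired cannot be decided from these values. Of 210 list medians under alternatives, 29 moved by more than 1 SD between libraries and 24 changed sign. Depth limits CD44 and ITGB3, with 1 and 8 reads in all, and ITGB3 is also limited by its overlap with AC068234.1.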

Other observations

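Basement membrane genes, the sheet-like matrix bound by β1 integrins, were divided in the same libraries. Of 21 genes 18 were tested, 8 with a positive log2 difference and 10 with a negative one, their median was -0.14 and 0 called by limma (over all genes 585 lay higher and 392 lower without adjustment at p under 0.05, and voom called 0). The median was 0.04 without knockdown replicate 3, -0.07 without control replicate 3, -0.24 without control replicate 2 and -0.32 without knockdown replicate 1. LAMB3, a laminin chain of epithelial sheets, was at 1.19, 1.09 and 1.53 RPKM in control replicates 1, 2 and 3 and 2.11 and 2.40 RPKM in knockdown replicates 1 and 3, a log2 difference of 0.64 (SE 0.22; limma adjusted p = 0.710). Nidogen 1 (NID1), which links laminin to type IV collagen, was at 100.1, 128 and 114 RPKM and 97.8 and 53.0 RPKM, and perlecan (HSPG2), the heparan sulfate proteoglycan of the sheet, at 59.3, 95.9 and 65.9 RPKM and 63.4 and 30.1 RPKM. In both of the latter control replicate 2 was highest and knockdown replicate 3 lowest, the order also seen in FN1.

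Of the hepatocyte markers, 9 of 16 tested genes had positive and 7 negative differences, and the median was 0.02. It was -0.044 with quantile normalization, -0.003 without knockdown replicate 3 and 0.093 without knockdown replicate 1. SERPINA1, the alpha-1 antitrypsin gene, was at 56.2 to 73.5 RPKM in the controls against 93.7 to 97.1 RPKM in the knockdown pair, and transferrin (TF) at 55.3 to 64.4 and 81.4 to 82.4 RPKM. The apolipoproteins APOC3 (19.0 to 38.1 and 39.5 to 62.5 RPKM) and APOB (85.6 to 134 and 45.7 to 83.5 RPKM) lay on opposite sides of the controls. None of these genes passed limma, at adjusted p = 0.710.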
